A study of Mus musculus with 24 samples.

Results

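Gene expression in the whole brain of Acads-/- mice was compared after 2 days on a diet high (HF) or low (LF) in fat. The comparison rests on 6 arrays, 3 from HF and 3 from LF mice, chosen by their labels for tissue, genotype and diet. They belong to the 12 brain arrays of a series of 24, each hybridized with the RNA of a single mouse. Both diet groups were male BALB/cByJ mice, 12 weeks old and singly housed. All of these mice carried the spontaneous deletion in Acads that defines the strain. The HF group ate diet D12331 and the LF group diet D12329. The other 6 brain arrays came from Acads+/+ mice of the BALB/cByKZ substrain on the same diets, so that genotype and substrain cannot be told apart where the genotypes are set side by side.

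Acads encodes short-chain acyl-CoA dehydrogenase, which catalyzes the first step of the mitochondrial β-oxidation of short-chain fatty acids. In its absence butyrate-derived acyl groups build up and appear in the circulation as acylcarnitines. Neurons draw most of their energy from glucose, and astrocytes are the main site of fatty acid oxidation in the brain, while hypothalamic circuits use signals from nutrients and hormones to set food intake.

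Levels are given below as log2 signal, the log2 of the quantile-normalized brightness of a probe. Differences are log2 fold changes, HF minus LF, where 1 is a doubling. Each gene is given by its brightest probe, with arrays 17873, 17956 and 17973 (HF) and 17866, 17981 and 17982 (LF) always in this order. Brain genes were bright on all 6 arrays: transthyretin (Ttr), made by the choroid plexus, lay between 20.91 and 21.09, the astrocyte enzyme Aldoc between 19.22 and 19.45, and myelin basic protein (Mbp) between 17.16 and 17.87. Acads was at 9.39, 10.02 and 8.90 on HF and at 7.90, 9.49 and 9.35 on LF diet, with overlapping groups (log2 fold change 0.52, SE 0.47, limma adjusted p = 0.734). In Acads+/+ mice Acads was at 11.73 to 11.92 on HF and 9.87 to 11.27 on LF diet. Whether its probe lies in the deleted part of the gene is not given in the sources used here. Cyclophilin A (Ppia), a reference gene, had 20.54, 20.62 and 20.75 on HF and 20.60, 20.68 and 20.66 on LF diet, a log2 fold change of −0.01 whose sign turned under 6 alternatives.

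Several arrays stood apart from their group. The median signal before normalization was 1029, 976 and 1749 on the HF arrays and 1615, 1388 and 1262 on the LF arrays. HF array 17973 lay with the LF arrays: on the first principal component of the 6 arrays (42.3% of the variance) it was at 18.1 and the LF arrays at 28.7, 16.1 and 22.8, whereas the other two HF arrays were at −23.2 and −62.5. Its mean correlation with the LF arrays across tested probes was 0.976, against 0.961 and 0.948 for the other two. LF array 17866 held pituitary hormone transcripts, and HF array 17873 had the highest signal of liver transcripts among the 6, as described further on. In Acads+/+ brain, LF array 18020 and HF array 18017 likewise stood out for these genes. Counts are therefore also given without array 17973 and without arrays 17866 and 17873.

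No probe passed an adjusted p of 0.05 with a fold change of at least 1.6 (0 of 16506 tested, 0%). The lowest adjusted p from limma was 0.0927, and the methods' t-test with Benjamini-Hochberg adjustment also gave 0. Array weights, which give uneven arrays less influence, gave 4, with Nrf1 the one named gene among them (adjusted p = 0.0407). At an unadjusted p under 0.05 and the same fold, 179 probes were higher on HF diet (1.08% of those tested) and 624 were lower (3.78%). The methods' t-test gave 73 and 222 at those thresholds. The 6 arrays separated by diet, with all 3 HF values above or all 3 below the LF values, for 1342 probes in the direction of higher on HF (8.13%) and 1361 in the direction of lower (8.25%). Over all 33012 probes, dim ones included, 885 were higher (2.68%) and 1179 lower (3.57%). In what follows "past unadjusted p" means these 2 thresholds together, and no such gene is called changed.

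Most of the probes past unadjusted p were dim. The median log2 fold change over all tested probes was 0.00 (SD 0.41). It was −0.13, −0.11 and −0.04 in the dimmest 3 deciles of mean signal and between −0.01 and 0.03 in the others, while its SD went from 0.64 in the dimmest to 0.25 in the brightest decile. Of the tested probes below the median of their mean signal 166 were higher and 505 lower past unadjusted p, and of those above it 13 were higher and 119 lower. A second probe of the same gene seldom passed: of 276 genes with more than 1 tested probe, 15 had a probe past unadjusted p and 0 had 2 of them past it in 1 direction, although the second probe had the same sign in 11.

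**Figure D1:**
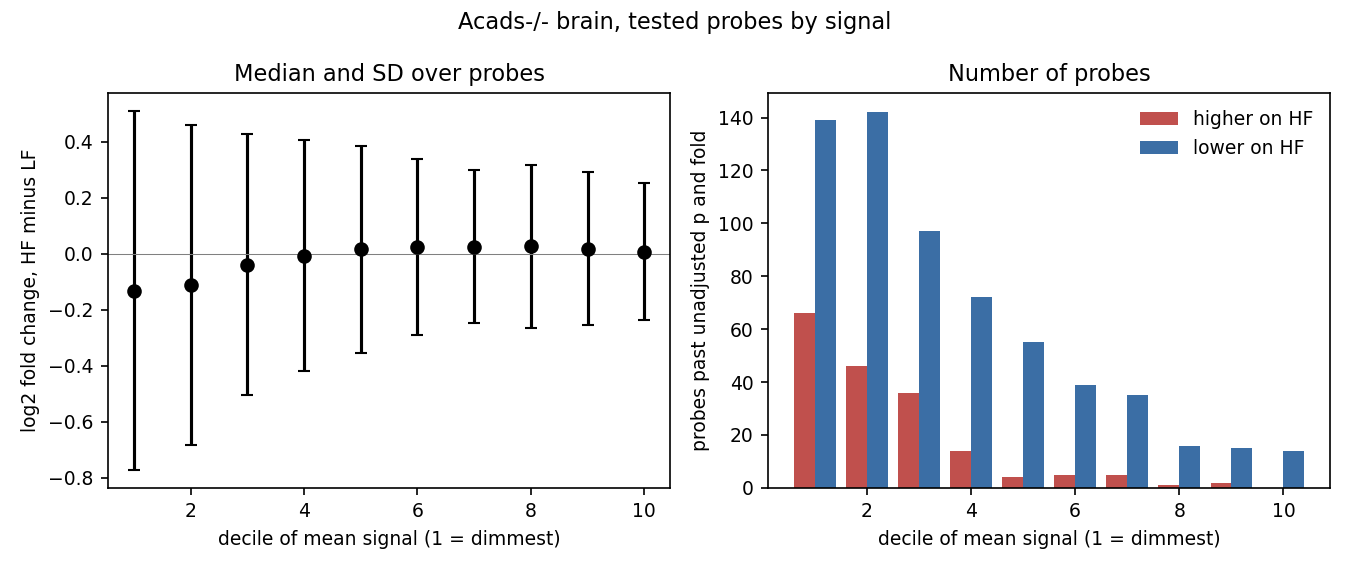
Tested probes of Acads-/- brain in 10 equal groups from dimmest (1) to brightest (10) by mean signal. Left, the median log2 fold change, HF minus LF, with bars of 1 SD over the probes, which narrow from 0.64 to 0.25. Right, the number of probes past an unadjusted p of 0.05 and a fold of 1.6 in each direction, which falls from 66 higher and 139 lower in the dimmest group to 0 and 14 in the brightest.

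Among the genes lower on HF diet, nuclear respiratory factor 1 (Nrf1), a transcription factor for genes of the respiratory chain and mitochondrial biogenesis, came first. Its log2 signal was 8.50, 9.49 and 10.21 on HF and 11.60, 11.63 and 11.23 on LF diet. The groups did not overlap, which was a condition for all the leading genes given here. The log2 fold change was −2.09 (SE 0.38) and the limma adjusted p was 0.429. A second, dimmer Nrf1 probe had −1.29. The serine carboxypeptidase Scpep1 was at 9.26, 9.30 and 9.82 on HF and 10.96, 10.46 and 10.97 on LF diet (log2 fold change −1.34, SE 0.25, adjusted p = 0.429). Neil2, a glycosylase of DNA base excision repair, was at 9.79, 10.39 and 10.46 against 11.69, 11.63 and 12.11 (−1.60, SE 0.30, adjusted p = 0.429). For both, array 17973 was the HF array nearest to the LF range.

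The other leading decreases had an adjusted p of 0.435. Ptgfr, the receptor for prostaglandin F2α, had 11.39, 11.42 and 11.63 on HF and 12.85, 12.68 and 13.14 on LF diet (−1.41, SE 0.33). Here the 3 HF arrays, 17973 included, lay close together and more than 1 log2 unit below the LF arrays. Pip4k2c, a phosphoinositide kinase, had 10.35, 11.29 and 10.22 against 12.12, 12.05 and 11.72 (−1.34, SE 0.30). Mapk15, an atypical MAP kinase, had 11.76, 11.48 and 11.94 against 12.58, 12.40 and 12.38 (−0.72, SE 0.17). Ptprcap, a partner of the leukocyte phosphatase CD45, had 12.44, 12.22 and 12.66 against 13.31, 13.14 and 13.12 (−0.75, SE 0.16). By the condition for leading genes, none of the groups of these genes overlapped. Erdr1, a secreted factor first described in leukemia cells, was the brightest of the leading decreases, with 14.73, 15.30 and 14.30 on HF and 15.84, 16.23 and 15.79 on LF diet (−1.17, SE 0.27). The other four were Prl8a8 (−1.18), a prolactin relative known from the placenta, the WD-repeat protein Wdsub1 (−0.83) and the olfactory receptors Olfr787 (−1.41) and Olfr1395 (−1.05).

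The leading genes higher on HF diet all had an adjusted p of 0.435. Cox7a1, the muscle-type subunit of cytochrome c oxidase, was at 13.51, 13.59 and 13.10 on HF and 12.33, 13.04 and 12.64 on LF diet (0.73, SE 0.21). Mrm2, which methylates mitochondrial ribosomal RNA, was the brightest of these genes at 14.76, 14.36 and 14.35 against 13.19, 13.21 and 14.26 (0.94, SE 0.27). Gtpbp3, which modifies mitochondrial tRNAs, was at 10.96, 11.05 and 11.14 against 10.27, 9.75 and 10.24 (0.96, SE 0.24). The gap between groups was small for Cox7a1 and Mrm2, where 1 LF array lay just under the lowest HF array, and wider for Gtpbp3.

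The lowest p of an increase belonged to Xrcc3, a homologous recombination protein, at 12.67, 12.52 and 12.64 on HF and 11.63, 12.20 and 11.90 on LF diet (0.70, SE 0.16). Bmpr2, a receptor for bone morphogenetic proteins, was at 11.67, 11.75 and 11.59 against 10.19, 10.84 and 10.68 (1.10, SE 0.30). In both the HF arrays were tight and the LF arrays spread. By contrast, the 2 largest of these increases were uneven among the HF mice: the transporter Abcc6 had 12.42, 13.94 and 11.02 against 9.99, 9.59 and 10.26 (2.51, SE 0.69), and the vomeronasal receptor Vmn1r4 had 11.47, 13.62 and 11.15 against 10.26, 10.39 and 9.70 (1.97, SE 0.51). Array 17956 was highest in both. The remaining increases were Snapc2 (1.15), a subunit of the complex that transcribes small nuclear RNA genes, the olfactory receptor Olfr846 (1.04), the F-box protein Fbxo42 (0.95), the AMPK-related kinase Nuak2 (0.89) and the oviduct glycoprotein Ovgp1 (0.88). For each of the 24 leading genes the direction was kept under every alternative run. These genes were chosen for groups without overlap on these arrays, so leaving out an array could hardly turn it, and this is not support for them.

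**Figure D2:**
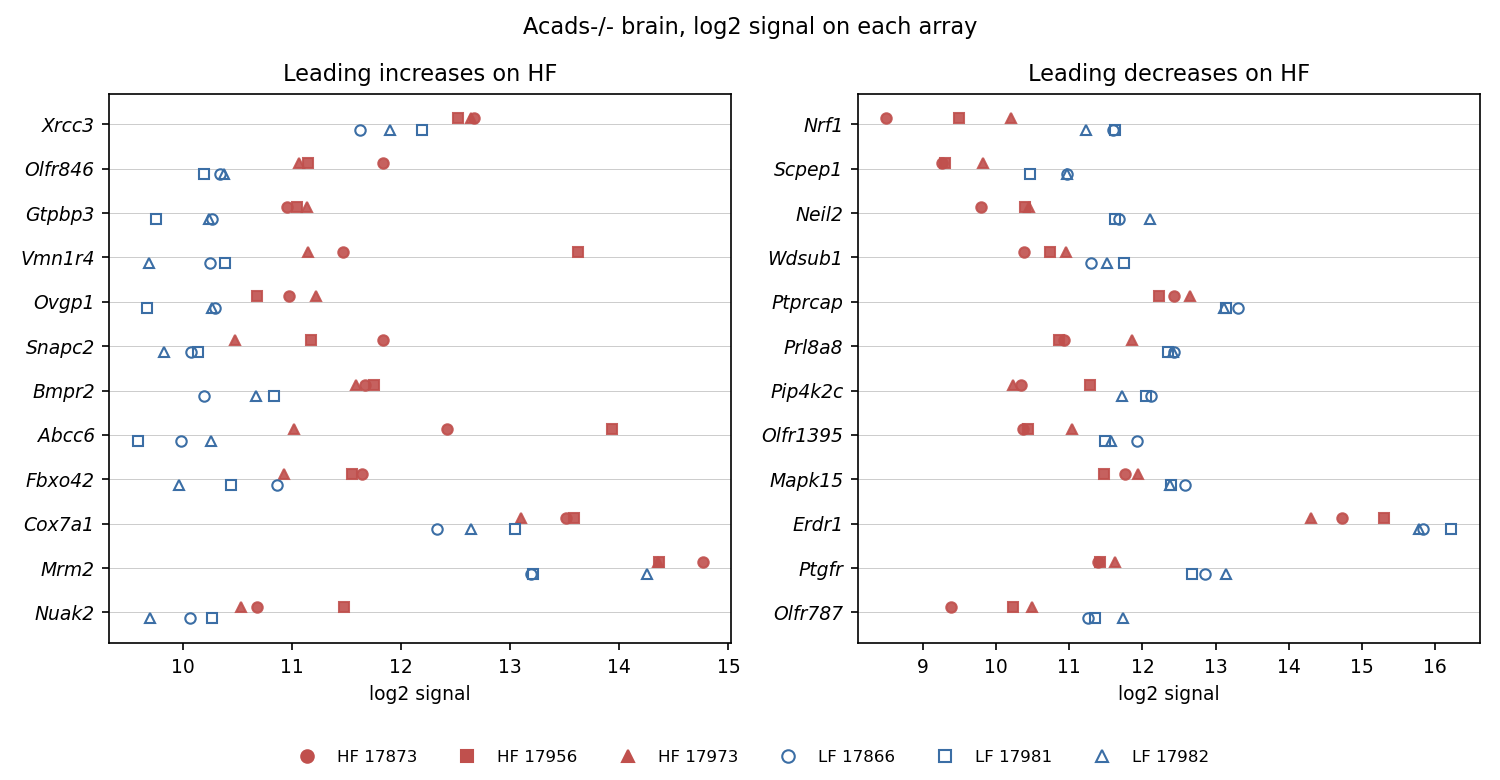
The 12 increases and 12 decreases of lowest p in Acads-/- brain. Each point is the log2 signal of 1 array, filled red for HF and open blue for LF, with a shape for each array. The genes were chosen for groups that do not overlap. The HF triangle (array 17973) is the HF point nearest to the LF points for Nrf1 (10.21), Scpep1 (9.82) and Neil2 (10.46).

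Without array 17973, the HF array nearest to the LF arrays, the same comparison gave many calls. Leaving out that array favours wider differences between the diets, so these calls do not stand for all 3 HF mice. No other single omission gave any call. From the remaining 2 HF and 3 LF arrays, 31 probes passed the adjusted p and fold higher on HF (0.188% of 16506) and 298 lower (1.81%), with a lowest adjusted p of 0.0014. Of these 329 probes, 232 were past unadjusted p in the same direction with all arrays, and 247 lay below the median signal of the tested probes. On array 17973 itself, 124 of them (37.7%) had a value within the LF range, beside 49.3% of all tested probes. Values of array 17973 beyond the LF range, on the side away from the other HF arrays, do not count as within it. A call also favours close LF values, which narrow that range. These shares therefore do not say how near array 17973 lay to the LF arrays. Among the leading genes Nrf1 then had −2.49 (adjusted p = 0.014), Prl8a8 −1.50 (0.012), Abcc6 3.23 (0.036) and Snapc2 1.49 (0.026). Scpep1, Neil2, Wdsub1, Ptprcap, Olfr1395, Mapk15, Olfr787 and Vmn1r4 passed as well. The other leading genes, among them Ptgfr, Pip4k2c and Erdr1, did not pass. The following genes, picked from those of lowest p in that fit, were looked at after their values were seen. Atp6v1a, the catalytic subunit of the vacuolar proton pump, was at 9.01 and 8.28 on arrays 17873 and 17956, 11.40 on array 17973 and 10.99 to 11.35 on LF diet. Sqor, the mitochondrial enzyme that oxidizes sulfide, had 9.73 and 9.50, then 11.58, and 11.25 to 11.68 on LF diet. The transcription factor Irf4, known from lymphocytes, had 9.18 and 8.62, then 10.86, and 10.40 to 10.71 on LF diet. In these 3 genes array 17973 lay within the LF range or above it. In Atg4b, with the same limma adjusted p of 0.0076, array 17973 lay just below the LF range, at 11.02 against 11.12 to 11.44. The lower signal of the 2 other HF arrays before normalization moves with these values, and its part in them was not tested.

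The study singled out a set of genes for this comparison, so their directions here are not independent of these arrays. Atp7a, the copper-transporting ATPase, was at 9.54, 8.95 and 9.87 on HF and 10.78, 10.55 and 10.19 on LF diet (−1.06, SE 0.29, adjusted p = 0.435). Prlhr, the receptor for prolactin-releasing peptide, which acts in satiety, was at 11.91, 11.53 and 11.82 against 12.95, 12.87 and 12.17 (−0.91, SE 0.23, adjusted p = 0.435). Neither gene's groups overlapped. A further 5 genes fell below the filter on signal and were taken from the fit over all probes. Dnajb9, a co-chaperone of the endoplasmic reticulum, had 8.60, 9.19 and 9.19 against 10.85, 10.38 and 10.37 (−1.54, SE 0.26, adjusted p = 0.378). The glucocorticoid receptor gene Nr3c1 had 8.11, 8.82 and 9.08 against 10.37, 9.92 and 9.73 (−1.34, SE 0.29, adjusted p = 0.488). All 3 HF values lay below all 3 LF values in both. The adaptor Plekha2 had −1.17, the interferon-induced synthetase gene Oas1c −0.83 and the muscle progenitor factor Pax7 −0.78, also without overlap. Many of these levels were not far above the floor of 7.87, to which the lowest signals were raised.

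A list of 43 genes taken to quantitative PCR was also followed. The study had picked them by p and fold on these arrays, so that their counts here are in large part fixed by that choice. On the arrays 29 of them had a named probe and 12 were tested. Past unadjusted p, 1 was higher and 6 were lower, with a median log2 fold change of −0.72, beside 1.08% and 3.78% of all tested probes. Below the filter, in the fit over all probes, 2 more were higher and 12 lower, where 2.68% and 3.57% of all probes were. The ceramide transporter Cert1 had 8.52, 8.64 and 8.58 on HF and 10.25, 10.19 and 10.20 on LF diet (−1.63, SE 0.27, adjusted p = 0.378). Tnfsf18, a ligand of the tumor necrosis factor family, had 7.95, 7.93 and 8.03 against 9.01, 9.65 and 9.13 (−1.29, SE 0.21, adjusted p = 0.378). In both genes the 3 HF arrays agreed within 0.2 log2 units, so that array 17973 was not with the LF arrays here. The HF values of Tnfsf18 lay just above the floor of 7.87, so how closely they agree says little. Other low members were Insrr (−1.62), a relative of the insulin receptor, the chloride channel protein Clic6 (−1.56), Npc1 (−1.39), which exports cholesterol from lysosomes, and the interferon-induced GTPase Mx2 (−1.39). The members on the high side were Rassf10 (1.57), Qsox1 (0.79), an enzyme that forms disulfide bonds, and Olfml2b (0.68). The cytochrome c oxidase subunit gene Cox8a, among the brightest, had 20.09, 20.20 and 20.20 against 19.07, 19.53 and 19.66 (0.74, SE 0.37, adjusted p = 0.535) and so separated by diet without passing unadjusted p. Rpl11 (0.01), Map3k2 (0.08), Arhgap20 (−0.09) and Dock5 (0.15) were near 0 at their brightest probe with overlapping groups. For Map3k2, 2 HF arrays and 1 LF array were at the floor. A second, dimmer probe of Arhgap20 had −1.25.

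**Figure D3:**
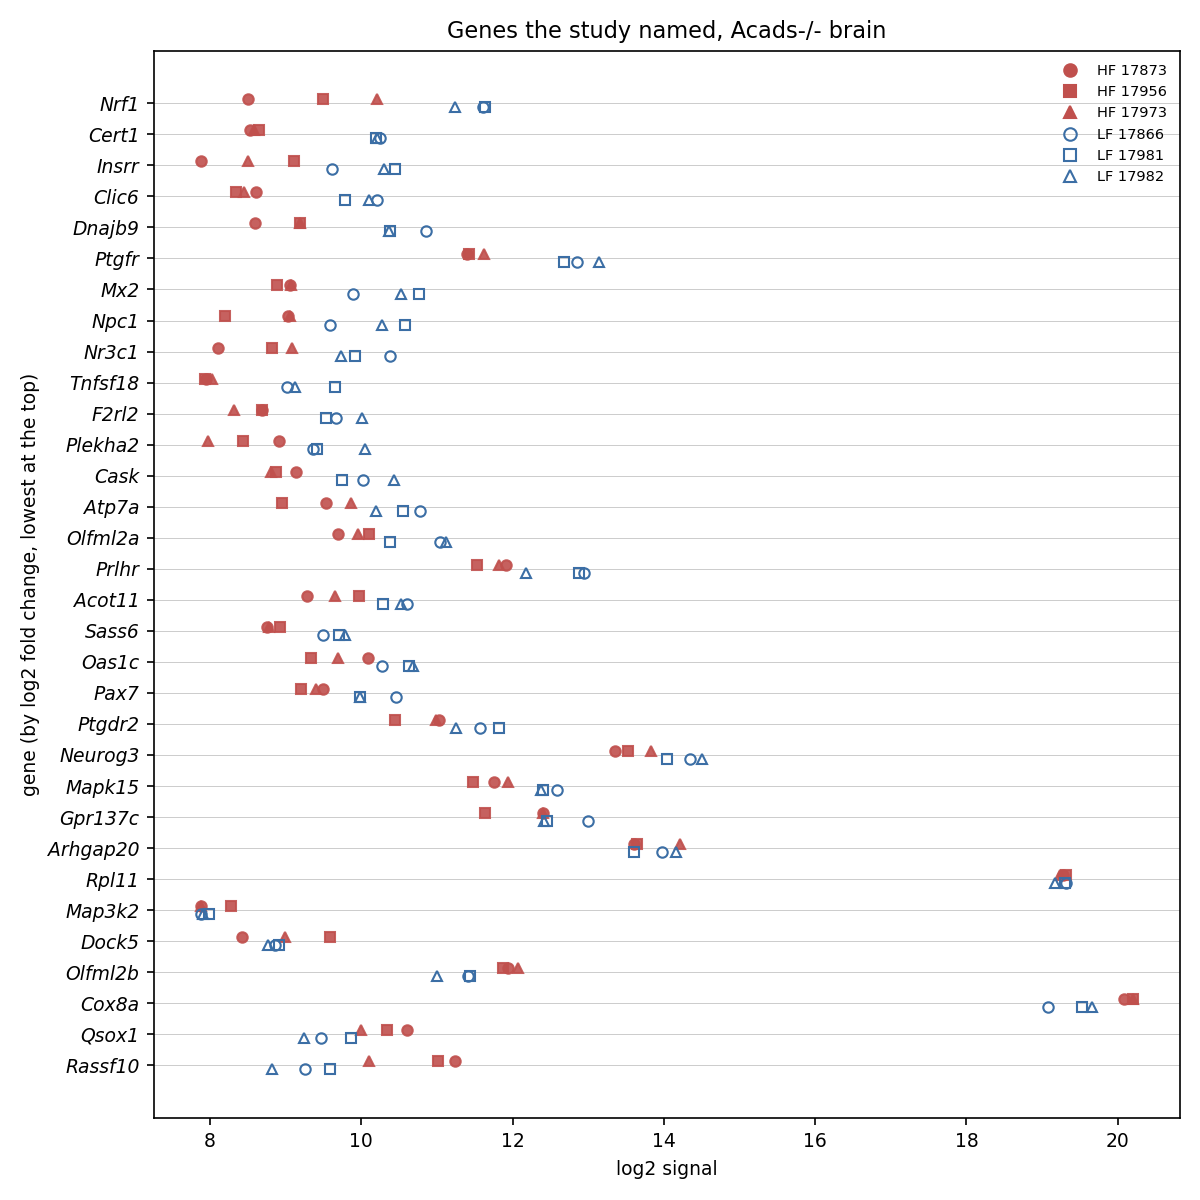
Genes that the study named for this comparison or measured by quantitative PCR, in Acads-/- brain. Each point is the log2 signal of 1 array (filled red, HF; open blue, LF), with genes ordered by log2 fold change from Nrf1 (−2.09) to Rassf10 (1.57). Most genes from the top to the middle lie at low signal with the HF points to the left.

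Chemosensory receptor genes, which encode receptors for odorants, pheromones and tastants, were mostly dim. Of 734 olfactory receptor genes on the array, 101 were bright enough to be tested, of which 30 were lower and 4 higher past unadjusted p, against 3.78% and 1.08% of all tested probes. The median of the 101 was −0.45, and 79 were below 0. The 734 together had 54 lower (7.36%, against 3.57% of all probes) and 31 higher (4.22%, against 2.68%), with a median of 0.04, so the median was below 0 in the tested members and not in the family. The largest difference among the 4 leading olfactory receptors was that of Olfr700 (−1.63). Without array 17973, the HF array nearest to the LF arrays, the median of the tested members was −0.66. At adjusted p 13 were then lower and 1 higher, against 1.81% and 0.188% of all tested probes in that fit. Of 13 tested vomeronasal receptors 1 was higher (Vmn1r4) and 0 were lower, with a median of −0.34, whose sign changed under 3 alternatives. All 113 on the array had a median of 0.06, with 6 higher (5.31%, against 2.68% of all probes) and 3 lower (2.65%, against 3.57%). None of 3 taste receptors passed, among them Tas1r3 (−1.24), a shared subunit of the sweet and umami receptors. Genes of olfactory sensory neurons, the cells that normally express these receptors, did not pass: 0 of 6 tested did, their median was 0.25 and their log2 summed signal was 15.5 to 15.8 on HF and 15.6 to 15.7 on LF diet. Olfactory receptor genes resemble each other in sequence, so a probe may read more than 1 of them.

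Genes of oxidative phosphorylation, which feed electrons from nutrients to oxygen and make ATP, had medians a little above 0 in 4 of 5 lists, with 1 gene past unadjusted p. In complex I 0 of 26 tested subunits passed, with a median log2 fold change of 0.13 and 19 above 0. The median was 0.15 over 7 subunits of complex III, 0.23 over 10 of complex IV, where Cox7a1 passed unadjusted p, and 0.08 over 12 of ATP synthase. Complex II had −0.07 over 3 subunits. Mitochondrial ribosomal proteins had a median of 0.16 over 62 genes, 50 of them above 0, and cytosolic ribosomal proteins 0.12 over 54 genes, 44 of them above 0. None of either passed. Ndufb7 of complex I and Rpl22 of the cytosolic ribosome, picked after their values were seen, show the size of such shifts: 17.98, 17.99 and 17.63 against 17.50, 17.56 and 17.53 for Ndufb7 (0.33, adjusted p = 0.643), and 18.41, 18.18 and 18.06 against 17.92, 18.01 and 17.85 for Rpl22 (0.29, adjusted p = 0.585). In both, array 17973 was the lowest HF array. The medians of complexes I, III and IV and of both ribosomal lists were above 0 under every alternative run, and that of ATP synthase was not. The median over all tested genes was 0.01.

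Genes of fatty acid and ketone body metabolism, the pathway that Acads belongs to, showed little. Of 20 tested genes of fatty acid oxidation 0 passed in either direction, with a median of 0.06. The brightest were Acadvl (0.05), which starts the oxidation of very long chains, Acaa1a (0.14), a peroxisomal thiolase, Crat (0.13), which makes acetylcarnitine, and Hadhb (−0.02), a subunit of the trifunctional protein. Slc25a20, the mitochondrial carnitine-acylcarnitine carrier, was picked after its values were seen: it had 11.75, 11.11 and 11.58 on HF and 12.02, 12.01 and 12.18 on LF diet, without overlap but under the fold of 1.6 (−0.59, SE 0.20, adjusted p = 0.437). Of the ketone body genes, Bdh1 (0.23) and Bdh2 (0.45), dehydrogenases of hydroxybutyrate, and Oxct1 (−0.24), which activates acetoacetate, did not pass. Among 7 tested targets of PPAR, the nuclear receptors that sense fatty acids, Ucp3, a mitochondrial uncoupling protein, was past unadjusted p, with 11.29, 11.96 and 11.34 on HF and values from 9.91 to 11.19 on LF diet (0.83, SE 0.36, adjusted p = 0.495). Its groups were separated by a narrow gap, and LF array 17981 stood below the rest. None of 13 genes of fatty acid synthesis (median −0.03, with Fasn at −0.02 and Scd2 at 0.07) or 15 of cholesterol synthesis and uptake (median 0.01, with Hmgcs1 at 0.05) passed.

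AMP-activated protein kinase (AMPK), an energy sensor that acts on food intake in the hypothalamus, was followed through the genes of its subunits and upstream kinases. None of 7 tested passed, and the median was −0.06. They included Camkk2 (−0.06) and Stk11 (0.14), kinases that activate AMPK, and the regulatory subunit gene Prkag2 (−0.18). The phosphorylation of AMPK is not measured by arrays.

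Feeding peptides and their receptors were also examined in whole brain, of which the hypothalamus is a small portion. None of 12 tested peptide genes passed (median 0.09). Neuropeptide Y (Npy), which stimulates feeding, had 17.28, 17.32 and 17.28 on HF and 16.98, 17.02 and 17.30 on LF diet (0.19, SE 0.27, adjusted p = 0.848). Cartpt, the precursor of an appetite-suppressing peptide, had 15.15, 15.42 and 15.35 against 14.92, 15.30 and 15.40 (0.10, SE 0.25, adjusted p = 0.920). The groups overlapped in both. Cck (0.04) and Sst (0.01), the genes of cholecystokinin and somatostatin, were near 0. Of 9 tested receptors 2 were lower past unadjusted p (22.2%, against 3.78% of all tested probes), Prlhr, which the study had chosen on these arrays, and Npy1r. Npy1r, a receptor of neuropeptide Y, had 10.49, 9.54 and 11.31 against 11.09, 11.21 and 11.43 (−0.79, SE 0.33, adjusted p = 0.485), with array 17973 inside the LF range. In bulk tissue fewer cells of a type and less RNA per cell cannot be told apart.

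Of 5 tested receptors for prostaglandins and thrombin 2 were lower and 0 higher past unadjusted p, with a median of −0.73, against 3.78% and 1.08% of all tested probes. This list was built around genes that the study had chosen on these arrays (Ptgfr, Ptgdr2 and F2rl2), and its median is the value of Ptgdr2, so its direction is not independent. Ptgfr was described above. F2r, a thrombin receptor, was not among the study's genes and stood at 8.43, 9.82 and 9.79 on HF and 10.90, 12.33 and 10.52 on LF diet (−1.90, SE 0.57, adjusted p = 0.435), where array 17981 was high. Subunits of GABA receptors, which carry inhibition, had a median of −0.34 over 10 tested genes, 8 of them below 0, and none passed. The brightest were Gabra6 (−0.32), Gabrb2 (−0.44), Gabrb1 (0.33) and Gabra2 (−0.15). The highest value was that of the rho subunit Gabrr2 (1.10, SE 0.63, adjusted p = 0.581), where array 17956 was high. Gabrr2, Gabrd, the extrasynaptic delta subunit, and Gabbr1, a subunit of the metabotropic receptor, were picked after their values were seen. Gabrd had 13.73, 13.66 and 13.75 against 14.24, 14.32 and 14.06 (−0.49, SE 0.15, adjusted p = 0.435), and Gabbr1 12.24, 12.40 and 11.70 against 12.51, 13.02 and 12.70 (−0.63, SE 0.20, adjusted p = 0.435). Neither overlapped, and both stayed under the fold of 1.6. Cerebellar markers also had a median below 0 (−0.17, with 7 of 10 below 0), and Gabra6 and Gabrd are known from cerebellar granule cells. The part of the cerebellum in these values was not tested. Glutamate receptor subunits had a median of −0.01 over 13 genes and 0 past p. Of 41 potassium channel genes 1 was higher, Kcna3 (1.39), and 2 were lower, Kcna5 (−0.89) and Kcnq1 (−0.85), close to the shares over all tested probes. None of 17 sodium and calcium channel genes passed (median −0.07).

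Stress and rhythm genes had medians close to 0. None of 10 tested genes of the glucocorticoid list passed (median 0.05), among them Sgk1 (−0.16) and Mt1 (0.19), and below the filter the receptor gene Nr3c1 itself had the −1.34 given above. Of 15 clock genes 0 passed (median 0.04, range −0.45 to 0.68, with Dbp at 0.20). Of 20 immediate early genes 0 passed (median −0.04, range −0.80 to 0.28, with Egr1 at 0.02). Of 20 genes of the unfolded protein response 0 passed (median −0.06, range −0.55 to 0.26), while 2 below the filter were lower past unadjusted p in the fit over all probes, Dnajb9 and the stress sensor Ern1 (−1.06). Hspa5, the main chaperone of that response, had −0.06, beside the −1.54 of Dnajb9. Of 22 antioxidant enzymes catalase (Cat) was lower past unadjusted p, at 11.36, 12.09 and 11.64 on HF and 12.19, 12.50 and 12.44 on LF diet (−0.68, SE 0.22, adjusted p = 0.436). Every HF value of Cat lay below every LF value. Of 10 tested interferon-induced genes none passed (median 0.26), and the leading one was Gbp3 (0.47), a guanylate-binding protein. Below the filter 3 were lower and 1 higher in the fit over all probes. The 26 on the array had a median of −0.02, with 11.5% lower and 3.85% higher, against 3.57% and 2.68% of all probes. Of 180 zinc finger genes 4 were lower, among them Zfp934 (−0.97), Zfp975 (−0.80) and Zfp710 (−0.70), and 1 was higher, Zfp128 (0.90). These shares, 2.22% and 0.556%, lay below the 3.78% and 1.08% of all tested probes. Riboflavin metabolism (7 tested, median −0.01), steroid and glucuronide enzymes (9, −0.07) and clustered protocadherins (14, −0.10) had 0 past p.

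**Figure D4:**
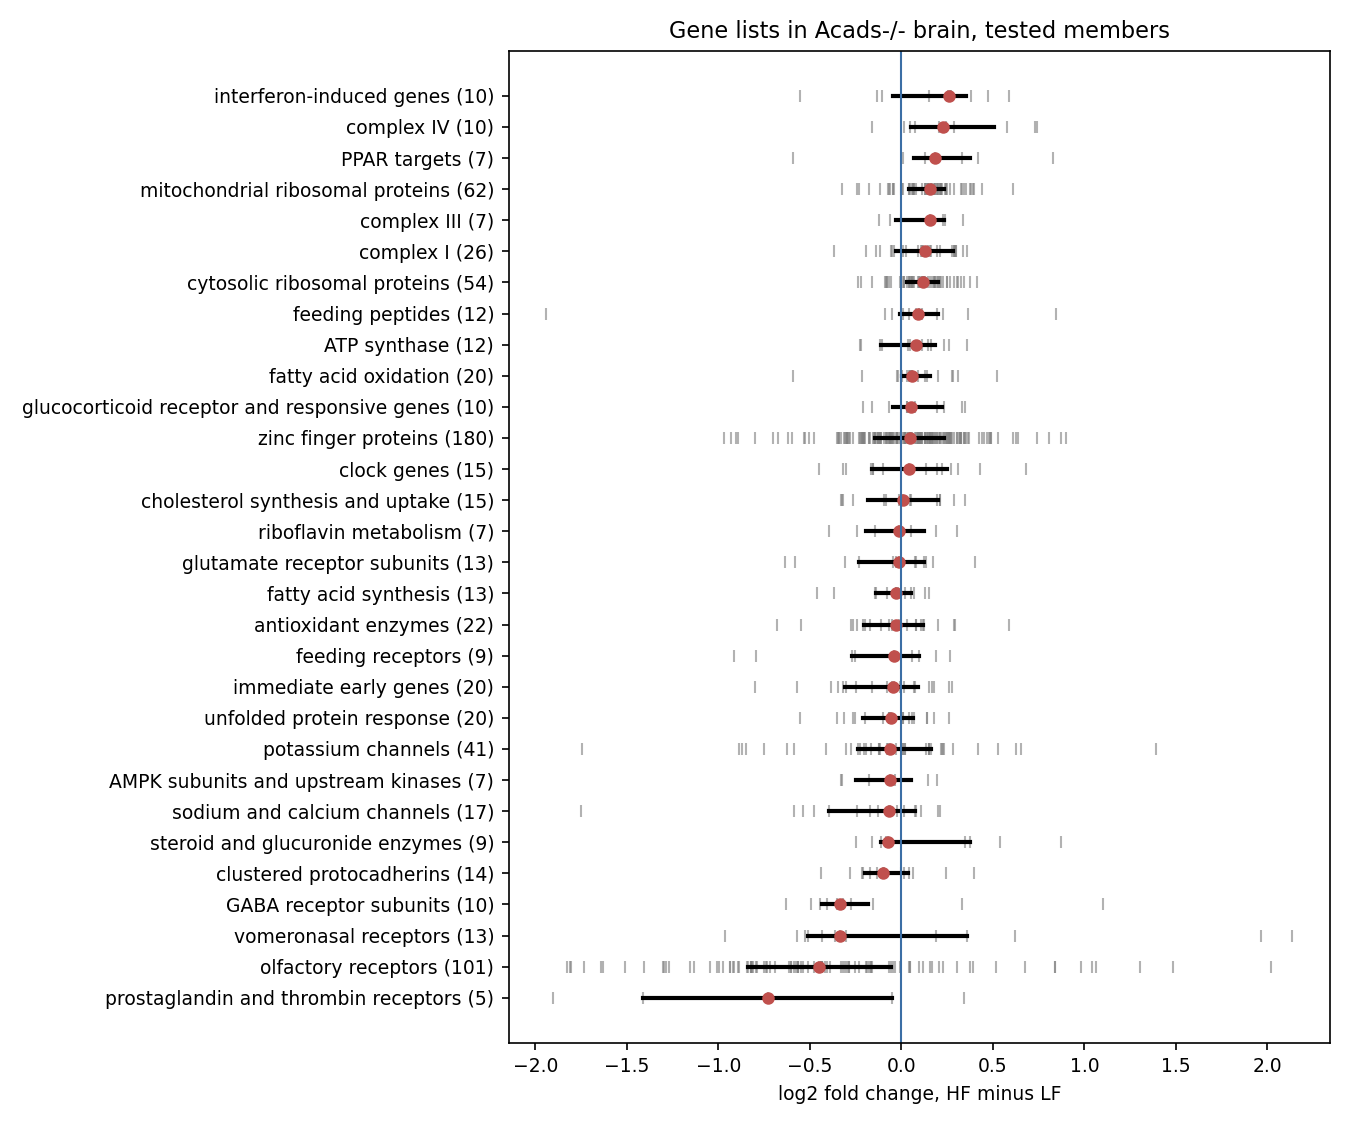
Log2 fold change, HF minus LF, of the tested members of gene lists in Acads-/- brain, with the number tested in brackets. Grey ticks are genes, black bars span the middle of the list between its quartiles, red dots are medians and the blue line is the median over all tested probes (0.00). Prostaglandin and thrombin receptors (−0.73), olfactory receptors (−0.45), vomeronasal receptors (−0.34) and GABA receptors (−0.34) lie lowest, the first of them with members that the study chose on these arrays. Over all members on the array, dim ones included, the median was 0.04 for olfactory and 0.06 for vomeronasal receptors.

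Of the tested markers of brain cell types and regions 3 were past unadjusted p. Medians of 15 marker lists, apart from pituitary and liver, lay between −0.17 (cerebellum) and 0.25 (olfactory epithelium). Of 10 cerebellar markers 0 were past unadjusted p, 7 were below 0 and 4 were lower without overlap (against 8.25% of all tested probes): Cbln1 (−0.27), Zic2 (−0.77), Calb1 (−0.26) and En2 (−0.23). The median log2 signal of the cerebellar markers was 15.77, 15.76 and 15.77 on HF and 16.00, 16.12 and 15.93 on LF diet, which does not overlap. That of the choroid plexus markers was 12.71 to 12.87 on HF and 12.22 to 12.50 on LF diet. Of the 10 tested choroid plexus markers 7 were above 0 and 3 below, and Clic6, a marker under the filter, had −1.56. The median log2 signal of the 10 hypothalamic markers, 5 of them under the filter, was 9.65 to 10.49 on HF and 10.57 to 10.99 on LF diet. The 5 tested ones had a median log2 fold change of 0.23, in the other direction. All 5 ependymal markers had a log2 fold change above 0, and their median signal was 13.66 to 14.02 on HF and 13.41 to 13.65 on LF diet. The median signal of the olfactory bulb markers was 13.02 to 13.11 on HF and 12.03 to 12.98 on LF diet. These lists are given because their median signal separated by diet, and in all other marker lists it overlapped. The log2 summed signal overlapped between diets in each of these lists. It was 19.52 to 19.78 on HF and 19.63 to 19.80 on LF diet for the cerebellum. For the choroid plexus it was 21.02 to 21.18 and 20.99 to 21.12, for the hypothalamus 16.43 to 17.05 and 16.38 to 16.76. For the ependyma it was 15.71 to 16.10 and 15.62 to 15.79, and for the olfactory bulb 17.50 to 17.54 and 17.25 to 17.77. The part of these lists in other results was not tested. The neuronal gene Snap25, of the vesicle fusion machinery, was lower past unadjusted p, with 11.57, 9.47 and 11.80 on HF and 13.66, 12.57 and 12.45 on LF diet (−1.95, SE 0.60, adjusted p = 0.435), but the summed log2 signal of the 11 neuronal markers was 20.9 to 21.1 on HF and 20.9 to 21.0 on LF diet. Spag6, a ciliary gene of ependymal cells, was higher (0.69) and Otp, a hypothalamic transcription factor, lower (−0.74). S100a8 and S100a9, neutrophil genes, were high on LF array 17982, at 14.57 and 15.89, against at most 12.61 and 13.19 on the other arrays.

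Pituitary hormone genes differed strongly by diet in size, and these differences rested on 1 array. Growth hormone (Gh) was at 8.16, 8.05 and 9.84 on HF and 19.84, 10.65 and 10.78 on LF diet (−5.07, SE 2.99, adjusted p = 0.592). Prolactin (Prl) had 8.41, 8.49 and 9.28 against 18.37, 8.29 and 8.81 (−3.10, SE 2.85, adjusted p = 0.740). Cga, the alpha subunit shared by the glycoprotein hormones, had 9.51, 9.47 and 10.32 against 17.09, 9.92 and 9.87 (−2.53, SE 2.31, adjusted p = 0.737). In all 3 genes LF array 17866 stood far above the other 5. It was also the highest for Lhb (13.53), Tshb (12.19), the pituitary factor Pitx1 (10.98) and Pomc (16.39), the precursor of melanocortins, whose other 5 values were 8.33 to 10.25. The log2 summed signal of 7 pituitary markers was 20.5 on array 17866 and 12.5 to 13.6 on the other 5 Acads-/- arrays. Array 18020 of the Acads+/+ LF group, which enters the fit and its spread, had 21.0, against 12.2 to 13.3 on the other 5 Acads+/+ arrays. Without array 18020, 165 probes were higher and 602 lower past unadjusted p, with 0 at adjusted p. Pomc, a feeding gene of the hypothalamus as well, had a log2 fold change of −1.94 with overlapping groups. For Gh alone the other two LF arrays also lay above the HF arrays. The promoters of the 2 hormones that differ in their cell type of origin, lactotrophs for Prl and gonadotrophs and thyrotrophs for Cga, are shown because these genes moved together on array 17866. They are RefSeq windows of 300 bases around the gene start in GRCm38.p6, plus strand, with matches to TATNCAT on either strand in capitals, a motif of the pituitary factor Pit-1 (Pou1f1).
Prl, chr13:27057320-27057619: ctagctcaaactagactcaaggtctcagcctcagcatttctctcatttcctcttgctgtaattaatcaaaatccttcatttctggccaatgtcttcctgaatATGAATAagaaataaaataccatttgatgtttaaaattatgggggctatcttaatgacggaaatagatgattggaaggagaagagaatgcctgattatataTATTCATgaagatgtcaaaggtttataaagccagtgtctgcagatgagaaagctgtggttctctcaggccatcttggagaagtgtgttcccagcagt
Cga, chr4:34893529-34893828: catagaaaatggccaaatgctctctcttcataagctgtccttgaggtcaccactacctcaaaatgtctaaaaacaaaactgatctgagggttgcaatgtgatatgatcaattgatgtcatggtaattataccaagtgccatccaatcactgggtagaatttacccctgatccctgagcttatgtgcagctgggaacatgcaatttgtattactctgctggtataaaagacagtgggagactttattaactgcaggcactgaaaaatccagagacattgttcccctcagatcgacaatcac
The Prl window held 2 matches, which do not overlap, and the Cga window 0, while 2903 of 32851 promoter windows (8.84%) held at least 1. A match describes these letters only.

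Of the Acads-/- arrays, HF array 17873 had the highest signal of liver transcripts. Apoa2, an apolipoprotein of high-density lipoproteins, was at 16.54, 12.71 and 14.45 on HF and 13.57, 12.21 and 14.38 on LF diet (1.18, SE 1.68, adjusted p = 0.849). Albumin (Alb) had 14.66, 10.10 and 12.17 against 11.84, 10.39 and 12.80 (0.63, SE 1.51, adjusted p = 0.915), and the cytochrome Cyp2e1 15.01, 11.40 and 13.12 against 12.32, 11.35 and 12.97 (0.96, SE 1.17, adjusted p = 0.817). The groups overlapped in each. The summed log2 signal of 8 liver markers was 17.3 on array 17873 and 13.3 to 15.4 on the other 5, while array 18017 of the Acads+/+ HF group had 17.8 and the other 5 Acads+/+ arrays 12.3 to 14.6. Without array 18017, 174 probes were higher and 611 lower past unadjusted p, with 0 at adjusted p. Without arrays 17866 and 17873, 180 probes were higher and 337 lower past unadjusted p, with 0 at adjusted p.

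**Figure D5:**
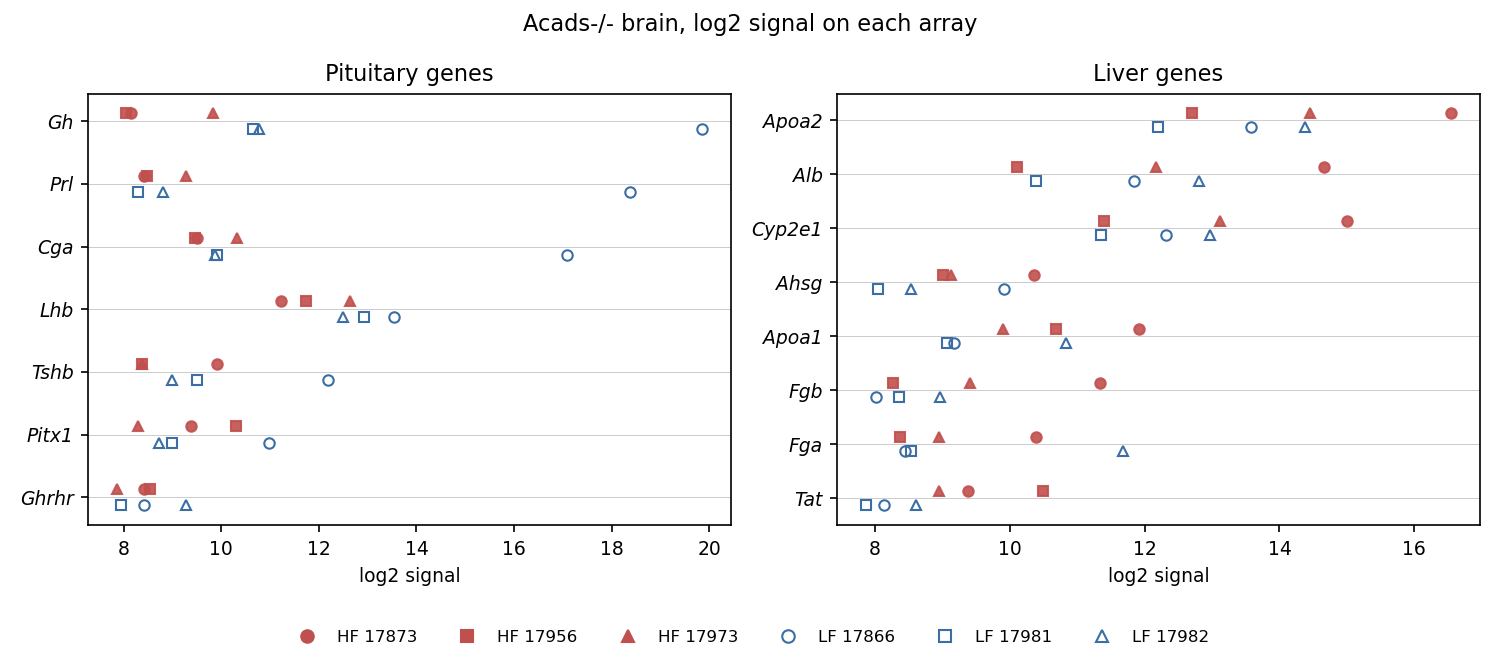
Log2 signal of pituitary genes (left) and liver genes (right) on each of the 6 Acads-/- arrays, filled red for HF and open blue for LF. The open circle of LF array 17866 stands apart for Gh (19.84), Prl (18.37) and Cga (17.09), and the filled circle of HF array 17873 is highest for Apoa2 (16.54), Cyp2e1 (15.01) and Alb (14.66).

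The effect of diet was also set against that in Acads+/+ mice, in the same fit. The difference between the diet effects passed the adjusted p and fold for 3752 of 16506 tested probes (22.7%), and for 24 of the 53 named genes compared. Many of these genes were chosen for their diet effect in Acads-/- brain, 1 term of that difference, so their share is not read against the 22.7%. The study singled out Plekha2, Atp7a, Dnajb9, Pax7, Nr3c1 and Oas1c for opposite directions in the genotypes on these arrays. Both terms of their difference were thus part of the choice. On the first component of the 12 brain arrays (49.2% of the variance) the 3 Acads+/+ HF arrays were at −46.3, −108 and −78.7, while the other 9 lay between 18.6 and 33.8. The part of this separation in the differences was not tested. Cox7a1 had the opposite direction in the genotypes: on HF diet it was at 10.67, 10.72 and 11.14 and on LF diet at 13.16, 13.17 and 13.07 in Acads+/+ mice, and its diet effect was 3.02 higher in Acads-/- mice (SE 0.29, limma adjusted p = 0.0013). Dnajb9 was at 11.15, 11.65 and 10.92 on HF and 9.88, 9.57 and 9.95 on LF diet in Acads+/+ mice, and the effects differed by −2.98 (SE 0.37, adjusted p = 0.0095). The study's choice of Dnajb9 largely fixed this difference. Nrf1 had 11.08, 12.22 and 11.74 on HF and 11.50, 11.38 and 11.32 on LF diet in Acads+/+ mice, overlapping, with a difference of −2.37 (SE 0.54, adjusted p = 0.012). Thus the low level of Nrf1 was in the Acads-/- HF group, with all 9 other arrays at 11.08 or above. Prlhr was lower on HF diet in both genotypes, by a log2 fold change of −0.91 in Acads-/- and −1.17 in Acads+/+ mice. The difference between them was 0.26 (SE 0.32, adjusted p = 0.579). The leading decreases Prl8a8, Mapk15, Ptprcap, Olfr1395 and Olfr787 likewise had no difference between genotypes past the threshold (adjusted p from 0.153 to 0.975).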

How the data were processed

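Total RNA of whole brain was hybridized by the authors to one-colour Applied Biosystems arrays. The deposited signal intensities are assay signals per probe, extracted by the authors from the images and not normalized between arrays. The authors' log2 values, quantile-normalized within the tissue, were used as an alternative and for replicate numbers, which the intensity columns lack. The genome build of the probes is not given in the sources used here.

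Intensities of the 12 brain arrays were quantile-normalized, raised to their 5th percentile (235, log2 7.87) and log2-transformed. Signal/noise flags were not used here, and instead the brighter 16506 of 33012 probes, by mean signal over the arrays, were tested. limma 3.58.1 (R 4.3.3) was fitted to 4 groups of 3 arrays with lmFit and eBayes, with Benjamini-Hochberg adjustment over all tested probes, and the script was tested on simulated data. Over probes the residual SD had a median of 0.271. Calls needed an adjusted p under 0.05 and a fold of 1.6, the fold of the study's methods. Genes below the filter come from the fit over all 33012 probes. Of the probes 14411 had 1 symbol in the platform annotation, 247 several and 18354 none here.

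Named were the 12 increases and 12 decreases of lowest p among probes with 1 symbol, unadjusted p under 0.05, a fold of 1.6 and groups without overlap; Acads and Ppia; genes the study named for this comparison; and up to 4 members per list, of lowest p or, with none past p, brightest. Members and lists were chosen with earlier results of these data known. Lists are described by counts and medians, without a test. Alternatives were median scaling, an offset of 500, no filter, the brightest 25% of probes, the authors' log2 values, the 6 Acads-/- arrays alone, omission of the Acads+/+ HF arrays, array weights, the methods' t-test, a replicate block and each array left out; leaving out arrays 17866 and 17873 together was added after seeing the data. Liver arrays were not analysed here.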

Additional observations from a re-analysis of the deposited data

Results flagged for a closer look

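The effect of diet differed between Acads-/- and Acads+/+ brain for 24 of the 53 named genes that could be compared, by the limma test of the difference itself at an adjusted p under 0.05 and a fold of 1.6. Over all tested probes 22.7% passed this test. The values below are the log2 fold change, HF minus LF, in Acads-/- mice less that in Acads+/+ mice. It was above 0 for the leading increases Olfr846 (2.46), Vmn1r4 (2.52), Ovgp1 (1.69), Cox7a1 (3.02) and Mrm2 (1.35). It was also above 0 for Rpl11 (1.12), from 0.01 in Acads-/- and −1.11 in Acads+/+ mice. It was below 0 for the leading decreases Nrf1 (−2.37), Scpep1 (−1.27), Neil2 (−1.96), Wdsub1 (−1.38), Pip4k2c (−2.46), Erdr1 (−1.67) and Ptgfr (−1.58). It was also below 0 for the genes the study had singled out, Plekha2 (−2.67), Atp7a (−2.51), Dnajb9 (−2.98), Pax7 (−2.16), Nr3c1 (−2.62), Oas1c (−1.90), Cask (−1.84), Clic6 (−3.56), Cert1 (−2.78), Npc1 (−1.96) and Tnfsf18 (−1.20). The latter were chosen by the study on these arrays. For Plekha2, Atp7a, Dnajb9, Pax7, Nr3c1 and Oas1c its choice rested on opposite directions in the genotypes, so that both terms of the difference entered it. The leading genes were chosen for their lowest p in Acads-/- brain, which is 1 term of the difference. The share past the test is thus partly fixed by these choices and is not read against 22.7%. The 3 Acads+/+ HF arrays stood apart from the other 9 brain arrays on the first component, from −46.3 to −108 against 18.6 to 33.8, and their part in these differences was not tested. Groups of 3 arrays were too small for a test of single outlying arrays.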

How the results depend on the processing

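Alternatives were run one at a time. The count of 0 probes at adjusted p became 4 with array weights (Nrf1 and 3 unnamed probes) and ran from 0 to 329 when each array was left out, with 329 only without HF array 17973. The 179 probes higher at unadjusted p became 119 with median scaling, 885 with no filter, 13 in the brightest 25% of probes and 73 by the methods' t-test, and 148 to 377 (without array 17973) when each array was left out. The 624 lower became 1179 with no filter, 124 in the brightest 25%, 222 by the t-test, 337 without arrays 17866 and 17873 (chosen after seeing the data) and 384 (without 17956; 397 without 17866) to 1261 (without 17973). The 2703 probes with groups that do not overlap became 4680, 1296 and 5369 with no filter, in the brightest 25% and without arrays 17866 and 17873, and 2693 to 7385 (4309 without 17981, 4369 without 17982) when each array was left out, which leaves fewer arrays to separate. The cause of the other shifts was not tested. The share of higher probes, 22.3%, was 42.9% with no filter, 34.8% without arrays 17866 and 17873 and 9.49% in the brightest 25%.

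With the replicate number as a block there were 0 probes at adjusted p, 172 higher and 648 lower, and it changed no other call. Same-numbered samples hardly deviated together (correlations 0.003, 0.099 and 0.036), so the numbers were not taken to pair mice.

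The direction of the 24 leading genes held under every alternative, which their choice by groups without overlap largely fixed in advance. Genes near 0 turned their sign: Ppia (−0.01) had 0.074 with median scaling, 0.0015 with the 6 arrays alone, 0.0057 without arrays 17866 and 17873, and −0.066 to 0.035 when each array was left out. Arhgap20 had 0.047 without arrays 17866 and 17873. When each array was left out, Arhgap20 ran from −0.29 to 0.034, Dock5 from −0.14 to 0.45, Map3k2 from −0.050 to 0.15 and Rpl11 from −0.033 to 0.045. With 3 mice a group an exact permutation test of 1 gene cannot go below p = 0.1. Fold changes spread most among dim probes, from an SD of 0.64 in the dimmest tested decile to 0.25 in the brightest.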

Other observations

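Some probes were high on 1 of the 6 Acads-/- arrays alone. The number of tested probes whose highest value lay more than 4 log2 units above the next was 2, 11 and 8 on HF arrays 17873, 17956 and 17973 and 8, 3 and 12 on LF arrays 17866, 17981 and 17982. Examples, chosen after their values were seen, were the T-cell adaptor Grap2 at 18.62 on array 17973 (next highest 9.79), Gfpt1, the first enzyme of the hexosamine pathway, at 18.66 on array 17982 (next 10.10), the keratin gene Krt79 at 18.28 on array 17873 (next 10.88) and Ulk1, a kinase that starts autophagy, at 17.12 on array 17956 (next 11.34). Grap2 thereby had the largest fold change of a named gene on the high side (4.17) without passing the adjusted p.

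The log2 fold change had a Spearman correlation of −0.05 with genomic span across 8739 tested genes, given as a description, since genes are not independent replicates.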
